A study of Homo sapiens with 4 samples.

Results

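The clustered protocadherin genes were all 53 protein-coding genes on chromosome 5 of hg38 whose symbols begin with PCDHA, PCDHB or PCDHG, out of 20033 protein-coding genes in GENCODE 44. They comprised 15 genes of the PCDHA cluster, 16 of the PCDHB cluster and 22 of the PCDHG cluster. The rule used symbols and positions and no measured value. The data were 4 CUT&RUN peak lists from HSSY II cells, an established synovial sarcoma (SS) line that carries SS18::SSX1 and was the single line used. In CUT&RUN, a nuclease tethered to an antibody releases the DNA around the bound protein. SS18::SSX (labelled SS18-SSX), the fusion oncoprotein of SS, and WDR5, a core component of the KMT2/MLL complexes that methylate H3K4, were each mapped after 4 days with DMSO and after 4 days with 2.5 μM MS67, a PROTAC degrader of WDR5. Each of these 4 conditions had 1 library, and murine NIH-3T3 cells were added to all of them as a spike-in. A single library per condition allowed no replicate test, so the values below carry no p-value.

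Clustered protocadherins are cell-surface adhesion proteins, best known from neurons, where different combinations of them give single cells a surface identity. In the PCDHA and PCDHG clusters, each gene has its own promoter and its own large variable exon, which is spliced to constant exons shared by the whole cluster, whereas each PCDHB gene is encoded without shared constant exons. Most of these promoters are chosen stochastically and carry a conserved sequence element. CTCF binds these promoters, and through its sites cohesin brings enhancers to them. The C-type genes PCDHAC1, PCDHAC2, PCDHGC3, PCDHGC4 and PCDHGC5, at the ends of their clusters, are regulated differently and are expressed more uniformly in neurons.

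The promoters are shown first, because the finding is where among them a peak was called. The RefSeq promoters (assembly GRCh38.p14, 250 bases before to 50 after a start) were given for 47 of the 53 genes. Within each cluster, the 9-letter word held by most members was taken, on either strand, after the sequences had been read. The word of the PCDHB promoters was GGTGGCGCT, which 13 of 14 held, all but PCDHB1, against 0.524% of all 27305 promoters. The word of the PCDHA promoters was GATGTCGCT, which 9 of 13 held, against 0.103% of all promoters. PCDHA9, PCDHA11, PCDHAC1 and PCDHAC2 were without it. The canonical starts of PCDHA9 and PCDHA11 in GENCODE are bases 140848382 and 140868957. Those genes begin at bases 140847772 and 140868183, more than 250 bases earlier. RefSeq starts at the same places would leave a word near the first base outside the sequences read. The word of the PCDHG promoters was GCGCCGCTG, which 10 of 20 held, against 1.25% of all promoters, and PCDHGC3 and PCDHGC4 were among those without it. All 3 words contain the letters CGCT. In the 30-base stretches printed here, on the plus strand of chromosome 5, capitals mark the word of the cluster.
PCDHA1: ttggccacatGATGTCGCTgtacaccacaa
PCDHA2: ttagccacatGATGTCGCTgtccaccatag
PCDHA4: ggagccacatGATGTCGCTctttaccacaa
PCDHA8: gaagccacatGATGTCGCTgtctaccaaga
PCDHA10: aaagccaccgGATGTCGCTgtcgtccacaa
PCDHB2: agagacgcggGGTGGCGCTgcagccttaga
PCDHB3: gcgaacgcatGGTGGCGCTgttgactaaga
PCDHB5: taggacgcctGGTGGCGCTgcaggctaaga
PCDHB8: gaggacccgtGGTGGCGCTgcaggataaga
PCDHB13: gaggacgcgtGGTGGCGCTgcaggataaga
PCDHB15: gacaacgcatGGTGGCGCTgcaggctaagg
PCDHGA1: aggactgtggGCGCCGCTGttcactaatct
PCDHGB1: caacctctggGCGCCGCTGtcgaccaaaag
PCDHGA8: aggactgtaaGCGCCGCTGttcacctactg
PCDHGB4: ctgactctggGCGCCGCTGttggccaaagt
PCDHGB5: ctgactctggGCGCCGCTGttggccaaagt
PCDHGB4 and PCDHGB5 had the same 30 bases. These words are a description of the letters, and no factor was mapped to them here.

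At these 53 promoters the lists were nearly empty. A promoter was counted as bound when a peak overlapped the 1 kb on either side of the start of the canonical transcript. SS18::SSX had a peak at 0 of the 53 promoters with DMSO, against 16.1% of all protein-coding promoters. A count of 0 allows a share of up to 5.66% by a limit of 3 counts, or 6.72% by the exact 95% interval. With MS67, SS18::SSX again had a peak at 0 of 53, against 0.909%. WDR5 had a peak at 3 of 53 with DMSO, or 5.66% (exact Clopper-Pearson 95% interval 1.18 to 15.7%), against 51.4% of all promoters. These were the promoters of PCDHAC1, PCDHAC2 and PCDHB2. The count was 0 of 53, against 31.2% of all promoters, when the centre of the peak had to lie from 1000 bp before to 100 bp after the start. With MS67, WDR5 had a peak at 0 of 53, against 35.1%. No member carried both proteins with DMSO (0 of 53, against 12.7% of all promoters). In all, 50 of the 53 members, or 94.3%, had no promoter peak in any of the 4 lists, against 40.7% of all promoters. The intervals and limits cover counting error over genes, and neighbouring genes of 1 cluster are not independent of each other.

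**Figure D1:**
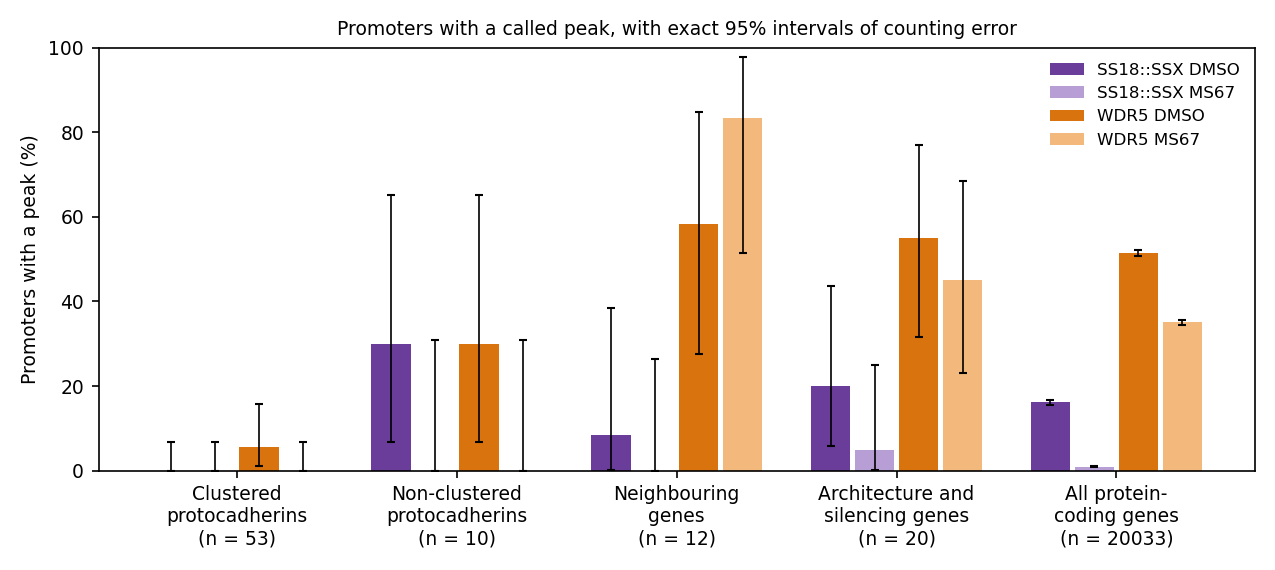
The bars give the percent of promoters with a called peak in each of the 4 lists, for the 53 clustered protocadherins, 3 comparison lists and all 20033 protein-coding genes, and the lines give exact 95% intervals. Among the clustered protocadherins, the WDR5 list with DMSO reached 5.66% and the other 3 lists 0.

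Within the family, WDR5 peaks with DMSO were at 2 of 15 PCDHA promoters, 1 of 16 PCDHB promoters and 0 of 22 PCDHG promoters. By type, they were at 2 of the 5 C-type promoters (40%, interval 5.27 to 85.3%) and at 1 of the 48 others (2.08%, interval 0.0527 to 11.1%). These intervals overlapped.

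PCDHAC1 (ENSG00000248383.5), the first C-type gene of the PCDHA cluster, starts at base 140926299 on the plus strand. Its WDR5 peak with DMSO was chr5:140926494-140926998 (hg38), 505 bp that lay wholly within the variable exon, 106 bp of them coding, with the summit 530 bp past the start. It had 8 fragments at the summit over a local background of 0.399, a fold enrichment of 6.43 (the fragments plus 1 over the background plus 1) and a −log10 q of 5.91, higher than 70.7% of the peaks of that list. No peak lay at this promoter in the other lists, where the nearest WDR5 peak with MS67 was 225 kb away. The nearest SS18::SSX peak was 293.9 kb away with DMSO and 5391 kb away with MS67. This promoter had the highest number of CpG sites of the family, 126 within 1 kb of the start, and a GC content of 56.6%.

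PCDHAC2 (ENSG00000243232.6), the second C-type gene and the last start site of the PCDHA cluster, starts at base 140966476. Its WDR5 peak with DMSO, chr5:140966276-140966901, was 626 bp long and spanned the start site, from 200 bp before it to 425 bp after it, with the summit 340 bp past the start. Of its bases, 426 lay in the variable exon and 135 of these were coding. The summit held 8 fragments over a background of 0.479, with a fold enrichment of 6.08 and a −log10 q of 5.34, higher than 64.4% of the list. The nearest WDR5 peak with MS67 was 265 kb away, and the nearest SS18::SSX peak with DMSO 334 kb. The promoter had 108 CpG sites and a GC content of 57.2%.

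PCDHB2 (ENSG00000112852.7), the first PCDHB gene after PCDHB1, starts at base 141094615. Its WDR5 peak with DMSO, chr5:141094660-141094835, covered 176 bp from 45 to 220 bp past the start, all in its exon and 45 of them coding. It had 7 fragments at the summit over a background of 0.368, a fold enrichment of 5.85 and a −log10 q of 5.01, higher than 59.6% of the list. The nearest WDR5 peak with MS67 was 226 kb away, and the nearest SS18::SSX peak with DMSO 462 kb. Unlike both C-type promoters, this one was poor in CpG sites, with 47 and a GC content of 43.7%. A long noncoding RNA, PCDHB1-AS1, overlaps this peak on the opposite strand and another, ENSG00000279028, the PCDHAC2 peak, and CUT&RUN fragments carry no strand to tell the genes apart.

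The 3 promoters with a peak are set beside each other here as the 200 bases before each start site, read from hg38, with CpG sites in capitals.
PCDHAC1: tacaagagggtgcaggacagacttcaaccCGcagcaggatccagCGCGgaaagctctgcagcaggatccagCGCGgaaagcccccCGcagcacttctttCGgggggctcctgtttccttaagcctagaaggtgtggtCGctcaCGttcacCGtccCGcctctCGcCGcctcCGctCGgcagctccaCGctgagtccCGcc
PCDHAC2: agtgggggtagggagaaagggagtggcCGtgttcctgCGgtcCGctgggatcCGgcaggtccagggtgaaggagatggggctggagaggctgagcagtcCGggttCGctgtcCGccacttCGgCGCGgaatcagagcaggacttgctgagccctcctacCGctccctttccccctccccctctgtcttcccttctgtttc
PCDHB2: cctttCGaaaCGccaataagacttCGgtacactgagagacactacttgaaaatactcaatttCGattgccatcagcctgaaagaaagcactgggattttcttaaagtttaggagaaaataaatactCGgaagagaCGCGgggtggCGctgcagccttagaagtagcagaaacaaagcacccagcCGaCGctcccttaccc
They occupy chr5:140926099-140926298, chr5:140966276-140966475 and chr5:141094415-141094614, and hold 17, 11 and 10 CpG sites. The coding bases under each peak, the first of the protein, are printed in the same way.
PCDHAC1: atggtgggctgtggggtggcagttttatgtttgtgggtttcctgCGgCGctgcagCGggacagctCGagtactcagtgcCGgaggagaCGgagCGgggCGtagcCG
PCDHAC2: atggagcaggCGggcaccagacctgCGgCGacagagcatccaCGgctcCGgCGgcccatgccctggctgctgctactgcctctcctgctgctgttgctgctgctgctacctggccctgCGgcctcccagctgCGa
PCDHB2: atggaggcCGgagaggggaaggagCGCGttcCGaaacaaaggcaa
The 3 coding stretches lie at chr5:140926893-140926998, chr5:140966767-140966901 and chr5:141094791-141094835 and hold 9, 8 and 4 CpG sites.

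The 3 peaks were low in fragments. The whole list had a median of 13 fragments at the summit. Across the 10302 promoters with a WDR5 peak with DMSO, the strongest peak had a median of 14 fragments at the summit, against 7 or 8 here, and 89.2% had more than 8. The median −log10 q at those promoters was 5.60, against 5.01 to 5.91 here. The summits of all 3 lay downstream of the start, by 190 to 530 bp. This was common, since 47.9% of the 10302 promoters had their summit more than 100 bp downstream.

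The other C-type genes and PCDHB1 had no promoter peak in any list. The distance from the start to the nearest WDR5 peak with DMSO was 19.6 kb for PCDHGC3, 10.5 kb for PCDHGC4 and 6.47 kb for PCDHGC5. With MS67 these distances were 143, 134 and 129 kb. PCDHGC3 and PCDHGC4 had 95 and 83 CpG sites, more than any gene outside the C-type group, and PCDHGC5 had 30. PCDHB1, the first gene of its cluster and the one of the 14 PCDHB promoters with a sequence that was without the shared word, had 64 CpG sites and lay 43.3 kb from the nearest WDR5 peak with DMSO and 269.5 kb from the nearest with MS67.

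The whole locus was 727 kb from the first base of PCDHA1 to the last of PCDHG (chr5:140786136-141512977). In both WDR5 lists and the SS18::SSX list with DMSO, it held fewer peaks than the genome-wide mean density of each list would give. WDR5 had 5 peaks there with DMSO, where the mean density of that list over the genome would give 8.81. Besides the 3 promoter peaks, 1 lay at chr5:141495546-141495761, in the intron between the first and second constant exons of PCDHG, with 6 fragments, a fold of 4.44 and a −log10 q of 2.85. Another, chr5:141512577-141512751, lay in the untranslated part of the last shared constant exon of PCDHG, with 16 fragments over a local background of 3.02, a fold of 4.23 and a −log10 q of 4.51. Just past the cluster, chr5:141513144-141514355 had 17 fragments over a background of 2.94. The local background at this end of PCDHG was thus far above the 0.368 fragments per bp of the genome, and these 2 peaks had the highest pileups but lower folds than the 3 promoter peaks.

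WDR5 had 1 peak in the locus with MS67, chr5:141320881-141321109, against 3.49 at the mean density of that list. It lay 100 bp before the start of TAF7, a subunit of the general transcription factor TFIID whose gene sits between PCDHB and PCDHG, and had 4 fragments and a −log10 q of 2.65. TAF7 had no WDR5 peak with DMSO. The nearest start of a clustered protocadherin, that of PCDHGA1, was 9.41 kb away. SS18::SSX had 0 peaks in the locus with DMSO, against 3.75 at its mean density. With MS67 it had 0, against 0.291, which is no sign of fewer peaks. Of stretches of this length laid end to end over the genome, 88.3% had no peak in that list.

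**Figure D2:**
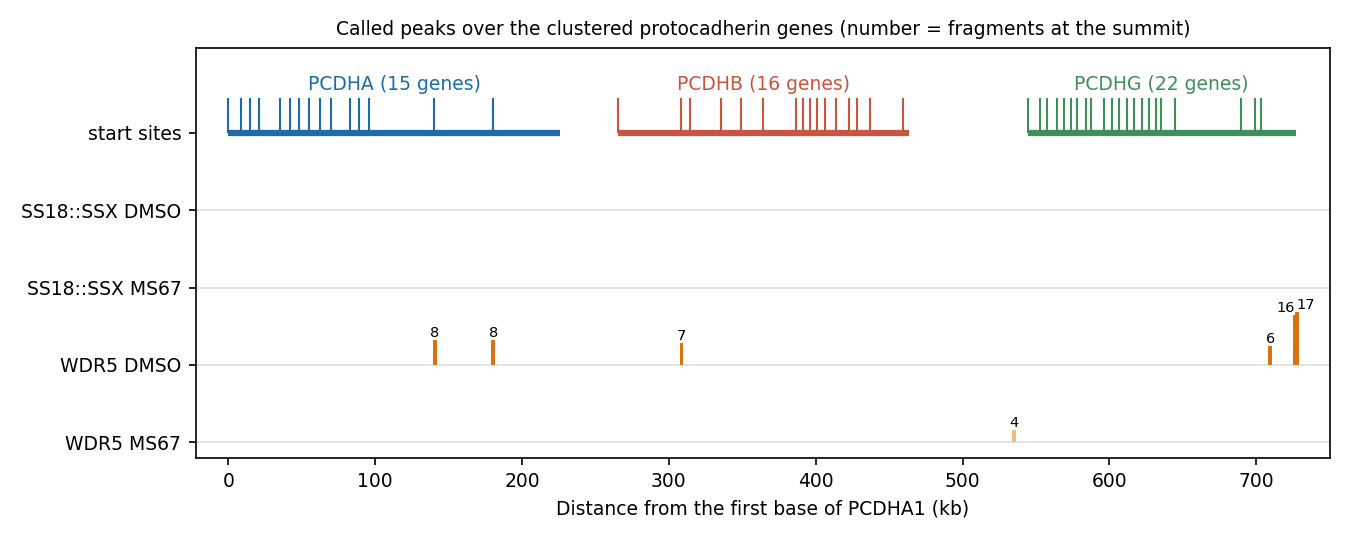
The upper row gives the start sites of the 53 genes along the 727 kb of the 3 clusters, and the 4 rows below give the called peaks of each list, with the height and number giving the fragments at the summit and the shortest peaks drawn wider than they are. Both SS18::SSX rows are empty, the WDR5 row with DMSO has peaks at PCDHAC1, PCDHAC2, PCDHB2 and toward and just past the end of PCDHG, and the WDR5 row with MS67 has 1 peak, at TAF7.

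By cluster, WDR5 peaks with DMSO covered 0.500% of PCDHA (chr5:140786136-141012347), 0.0889% of PCDHB (chr5:141051374-141249365) and 0.214% of PCDHG (chr5:141330514-141512977), against 0.469% of the genome. The PCDHA value rested on the 1131 bp of its 2 promoter peaks. The coverage of all 3 clusters was 0 in the other lists, in which WDR5 with MS67 covered 0.138% of the genome, and SS18::SSX covered 0.156% with DMSO and 0.0153% with MS67.

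An empty stretch of this size was common in the genome but less so among gene-dense stretches. The chromosomes were divided end to end into 4236 windows of the length of the locus. Of these, 39.1% had no SS18::SSX peak with DMSO and 51.4% had 5 or fewer WDR5 peaks with DMSO. The medians over all these windows were 1 SS18::SSX peak and 5 WDR5 peaks with DMSO, and 2 WDR5 peaks with MS67. For WDR5 with DMSO, the 5 peaks of the locus thus equalled the median. Of the 159 windows with 20 or more protein-coding start sites, 7.55% had no SS18::SSX peak with DMSO, and the median was 8 peaks. In the same 159 windows, 5.03% had 5 or fewer WDR5 peaks with DMSO, with a median of 32. As few as 1 WDR5 peak with MS67 was found in 5.66% of them, with a median of 14.

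The stretches between neighbouring peaks gave the same picture from another side. All 53 start sites lay in 1 stretch of 1060 kb without an SS18::SSX peak with DMSO, from CD14 to ARAP3. It held 70 start sites, a tie for rank 3 among the 15117 such stretches of the genome, although by length it ranked 694. For WDR5 with DMSO, 36 of the 53 starts, from PCDHB3 to PCDHGC5, lay in a stretch of 401 kb with 39 start sites, rank 6 among 35581 by start sites and rank 1377 by length. The stretches ahead of it held families such as olfactory receptor and keratin genes. Another 14 starts, from PCDHA1 to PCDHAC1, lay in a stretch of 205 kb (rank 28 by start sites). With MS67, the WDR5 peak at TAF7 divided the locus into a stretch of 620 kb with 31 members (rank 8 of 14099) and one of 297 kb with the 22 PCDHG genes (rank 19).

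Measured from each start site, the nearest SS18::SSX peak with DMSO was 153.8 to 519.8 kb away, with a median of 309.7 kb, against 85.4 kb for all genes. The PCDHB genes were farthest from one, at 419 to 519.8 kb, followed by PCDHG at 203 to 362 kb and PCDHA at 153.8 to 334 kb, so that PCDHB did not overlap the other clusters. The nearest WDR5 peak with DMSO was at a median of 86.0 kb, with a range of 0 to 165 kb, against a median of 0.916 kb for all genes. With MS67, the median distance to a WDR5 peak was 112 kb, against 17.6 kb, and the medians of PCDHA, PCDHB and PCDHG were 140.1, 140.8 and 69.1 kb. For SS18::SSX with MS67 the median was 5664 kb, against 1768 kb. These distances are set by a few peaks around the locus and are shared by neighbouring genes.

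**Figure D3:**
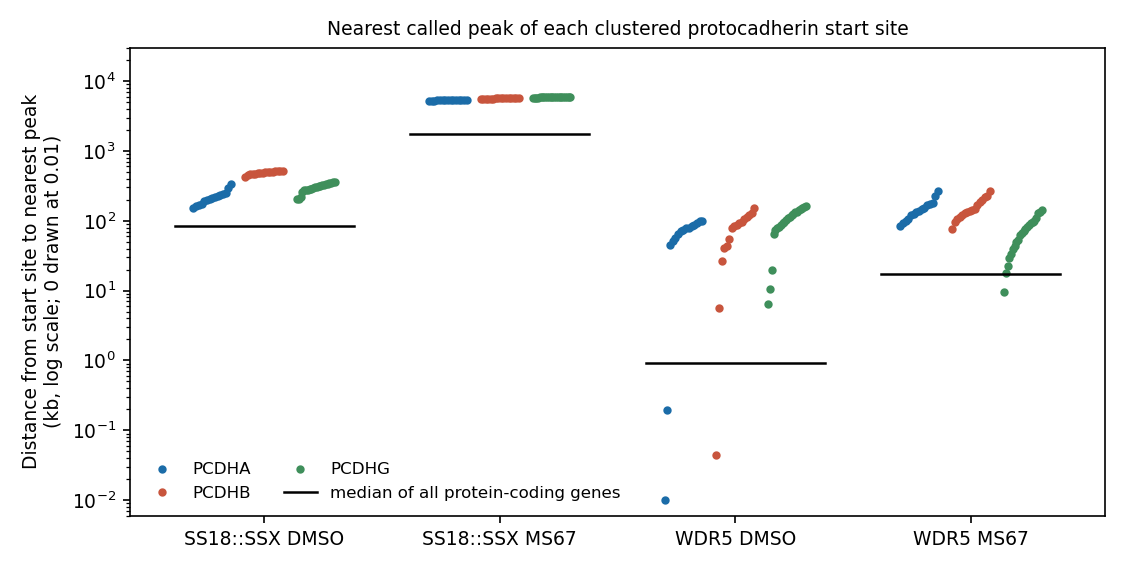
Each point is the distance in kb, on a log scale, from the start site of a clustered protocadherin to the nearest peak of a list, coloured by cluster, and the black lines give the median of all protein-coding genes. In the WDR5 list with DMSO, 3 points fall below the line at 0.916 kb and the other 50 lie above 5 kb.

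The promoters differed from most others in base composition. The family had a median of 56 CpG sites within 1 kb of the start, with a range of 23 to 126, against a median of 96 for all genes, and a median GC content of 42.7% against 56.0%. The PCDHB promoters were the poorest, with a median of 39.5 CpG sites, compared with 59 for PCDHA and 58.5 for PCDHG. All genes were divided by CpG number into 10 classes of equal size. The share of promoters with an SS18::SSX peak with DMSO rose from each class to the next. For WDR5 with DMSO, the share rose up to class 7 (72.4%) and was 66.0% in class 10. The members were therefore set beside genes of like CpG number. In class 2, with 20 to 38 CpG sites, 0 of 8 members had a WDR5 peak with DMSO, against 7.89% of its genes. In class 3, with 38 to 64 sites and 30 of the 53 members, 1 had a WDR5 peak, against 31.9%. In class 4, with 64 to 82 sites, it was 0 of 11, against 59.3%. Of the 4 members in higher classes, PCDHAC1 and PCDHAC2 had a peak and PCDHGC3 and PCDHGC4 had none, where 64.8 to 70.4% of the genes in their classes had one. For SS18::SSX with DMSO, the shares of all genes in classes 2, 3 and 4 were 0.849%, 6.09% and 10.7%, against 0 of 8, 0 of 30 and 0 of 11 members. In classes 3 and 4, WDR5 peaks with DMSO were thus less frequent among members than among all genes of like CpG number. In class 2, with 8 members and a share of 7.89%, a count of 0 cannot show a difference. No interval was computed for the classes. The part of the CpG number in the result beyond these values was not tested.

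**Figure D4:**
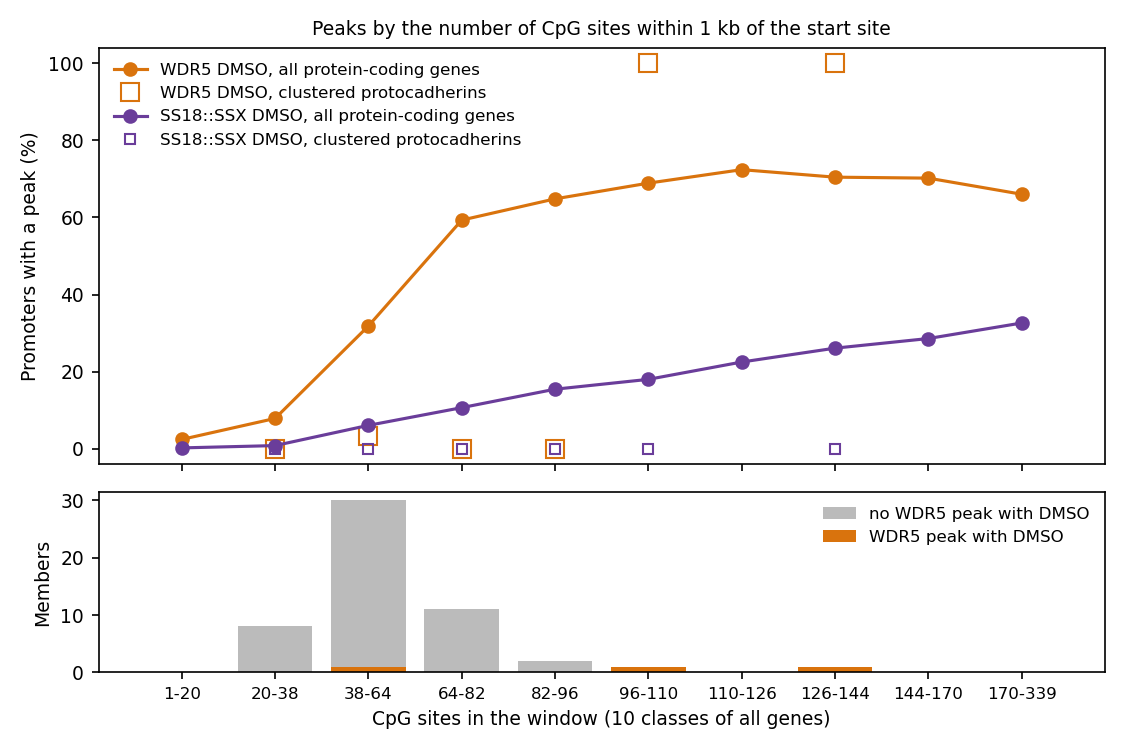
The upper panel gives the percent of promoters with a peak in the DMSO lists for all protein-coding genes (filled points) and the clustered protocadherins (open squares), in 10 equal classes of genes by CpG number. The lower panel gives the number of members per class, 30 of them in class 3, with the 3 that had a WDR5 peak in orange.

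Some members are near copies of each other, so the share of each promoter that occurs elsewhere in hg38 was measured, as its 50-base words found again on either strand. This share was over 20% for 6 members and 0 for 23. It was 38.7% for PCDHB8 and PCDHB13, 29.1% for PCDHA9, 26.5% for PCDHA7 and 24.4% for PCDHGB4 and PCDHGB5. It was 5.28% for PCDHAC1 and 0 for PCDHAC2, PCDHB2, PCDHB1, PCDHGC3, PCDHGC4 and PCDHGC5. How the alignment placed reads with several matches was not stated, and a missing peak at the 6 members over 20% is therefore less certain than at the 23 without repeated words.

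With MS67, all 3 WDR5 promoter peaks of the family were no longer called (3 of 3, exact interval 29.2 to 100%), against 41.7% of all promoters with a WDR5 peak with DMSO. Their DMSO peaks were low, and low peaks were lost more often. Among the 796 promoters with 7 or 8 fragments at the summit with DMSO, 58% had no WDR5 peak with MS67, compared with 30.7% of those with more than 20 fragments. The WDR5 library with MS67 was also shallower, with a genome-wide coverage of 0.168 fragments per bp against 0.368 with DMSO, a ratio of 0.458. Scaled by this ratio, the 8, 8 and 7 fragments would be 3.67, 3.67 and 3.21. The lowest pileup called at the genome background was 3 in the MS67 list and 4 in the DMSO list. A change of WDR5 at these 3 promoters and the lower depth cannot be told apart from the lists.

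**Figure D5:**
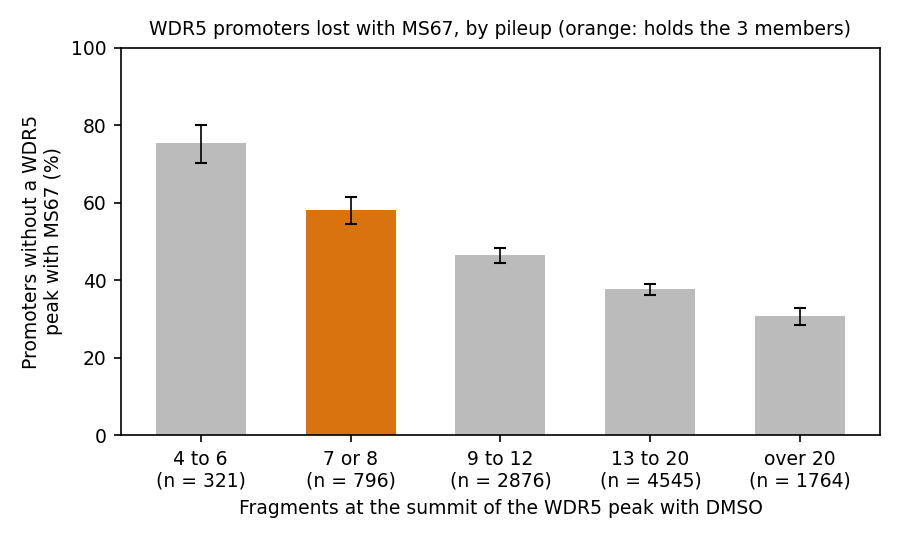
The bars give the percent of promoters with a WDR5 peak with DMSO that had none with MS67, by the fragments at the summit with DMSO, with exact 95% intervals. The orange bar, at 58%, is the class of 7 or 8 fragments in which PCDHAC1, PCDHAC2 and PCDHB2 fall.

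For SS18::SSX the depth ran the other way, since the genome-wide coverage was 0.541 fragments per bp with DMSO and 0.737 with MS67. The lowest pileups called at that background were 5 and 7 fragments. These limits apply at the genome background, and more fragments are needed where the local background is higher. The lists hold called peaks alone. The 0 of 53 for SS18::SSX thus means that no peak was called at these promoters, not that binding was absent. The peak numbers of the lists were 15141 and 1175 for SS18::SSX and 35605 and 14123 for WDR5, with DMSO and MS67.

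Genes next to and within the locus served as a local comparison. DIAPH1 alone lay past its end, TAF7 and SLC25A2 lay within it, and the others lay before PCDHA. Of 12 such genes, 7 had a WDR5 peak with DMSO (58.3%, interval 27.7 to 84.8%, against 51.4% of all promoters), and 10 had one with MS67 (83.3%, interval 51.6 to 97.9%, against 35.1%). None of the 7 was lost, and WDR55, TAF7 and DIAPH1 had a WDR5 peak with MS67 alone. CD14, a coreceptor for bacterial lipopolysaccharide, had a WDR5 −log10 q of 16.6 with DMSO and 3.09 with MS67, at 23 and 5 fragments. TMCO6 had values of 5.23 and 6.81, at 12 and 11 fragments. HARS1 and HARS2, the histidyl-tRNA synthetase genes that share a divergent promoter and its peaks, had values of 4.65 and 5.43, at 11 and 10 fragments. IK and NDUFA2 also shared their WDR5 peaks, with DMSO and with MS67. The shares and intervals given here count the genes of such pairs separately, although they are not independent. DIAPH1, a formin gene just past the PCDHG cluster, had no peak with DMSO and a value of 4.73 with MS67, at 9 fragments. SLC25A2, a mitochondrial ornithine carrier gene that lies between PCDHB and PCDHG, and DND1, a germ-cell RNA-binding protein gene, had none in any list. SS18::SSX had a peak with DMSO at 1 of the 12, CD14, with a −log10 q of 2.09 (8.33%, interval 0.211 to 38.5%, against 16.1% of all promoters). With MS67 it had a peak at 0 of 12 (interval 0 to 26.5%, against 0.909%). Both intervals held the share of all promoters. The 12 genes had a median of 95.5 CpG sites, against 56 for the clustered protocadherins.

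The non-clustered protocadherins, single genes elsewhere in the genome that encode related adhesion proteins, were compared at their promoters. Of 10 such genes, 3 had an SS18::SSX peak with DMSO (30%, interval 6.67 to 65.2%, against 16.1% of all promoters) and 3 a WDR5 peak with DMSO (30%, against 51.4%), with both at PCDH1 and PCDH17. PCDH8 had the highest SS18::SSX value, a −log10 q of 10.0 at 29 fragments. PCDH1 had −log10 q values of 4.67 for SS18::SSX and 5.44 for WDR5, and PCDH17 had 2.85 and 3.46. PCDH18 had a WDR5 peak alone, with a value of 6.40 at 17 fragments. None of the 10 had a peak of either protein with MS67 (interval 0 to 30.8% for each). The shares of all promoters were 0.909% for SS18::SSX and 35.1% for WDR5, so for SS18::SSX a count of 0 is near that share. Their median number of CpG sites was 106.5.

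The genes for the proteins that fold or silence the clusters were also examined at their own promoters. Of 20 such genes, 4 had an SS18::SSX peak with DMSO (20%, against 16.1% of all promoters) and 11 a WDR5 peak (55%, against 51.4%). With MS67 these numbers were 1 (5%, against 0.909%) and 9 (45%, against 35.1%). The shares of all promoters with DMSO lay within the exact intervals of the list, 5.73 to 43.7% and 31.5 to 76.9%, so the list did not stand apart from them. CTCF, which binds the protocadherin promoters and enhancers, had an SS18::SSX peak with DMSO (−log10 q of 4.19 at 9 fragments) and a WDR5 peak with MS67 alone (5.51 at 10 fragments). WAPL, which releases cohesin from DNA, had an SS18::SSX value of 1.36 with DMSO and WDR5 values of 8.51 with DMSO and 2.28 with MS67, in peaks that did not overlap. SMCHD1, a silencing factor known to act on the clusters, had WDR5 values of 1.88 with DMSO and 6.04 with MS67, at 11 and 15 fragments. DNMT3B, a de novo DNA methyltransferase that methylates these promoters, had WDR5 values of 6.75 and 3.97, at 22 and 11 fragments. It had 2 WDR5 peaks with DMSO, and the one with these values did not overlap the peak with MS67. SETDB1, an H3K9 methyltransferase, had values of 2.26 and 2.87, again in peaks apart from each other. TRIM28 was the gene with SS18::SSX peaks in both lists, with values of 5.51 with DMSO and 10.7 with MS67. Those 2 peaks, chr19:58544044-58544207 and chr19:58542877-58543175, did not overlap. NIPBL, RAD21, STAG2, PDS5A, ATRX, DNMT3A and WIZ had no promoter peak in any list.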

How the data were processed

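SS18::SSX and WDR5 were profiled by CUT&RUN in HSSY II cells given DMSO or MS67, with 1 library per condition. The authors aligned reads to hg38 and to the mouse spike-in genome with Bowtie2, removed duplicates with Picard, and called peaks in each library with MACS2. The MACS2 options and control library are not given in the sources used here. The authors deposited, per peak, its position, a fold enrichment (a ratio to the local background, with 1 added to each term), the −log10 p-value and −log10 q-value, and a score, which was not used. No reads or spike-in–scaled signals were analysed here.

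The fragments at each summit and the local background were recovered from the deposited fold and −log10 p, assuming that MACS2 added 1 to both terms of the fold, and fitted 100% of peaks to a tolerance of 0.001. Genome-wide coverage was the smallest background found in each list. The recovery, the overlap search and the count of repeated words were tested on simulated data. Promoters were the 1 kb on either side of the canonical start in GENCODE 44, overlapped by a peak by at least 1 bp. Shares have exact 95% intervals (Clopper-Pearson), and a count of 0 has the limit that 3 counts allow, both for counting error only. Sequences came from hg38 and the RefSeq promoter table. PCDHA3, PCDHA13, PCDHB6, PCDHB11, PCDHGA12 and PCDHGC5 had no entry in that table.

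The genes to be described singly were the C-type genes, PCDHB1, members with a promoter peak with MS67 or of both proteins with DMSO, and the 3 highest promoter peaks by −log10 q per cluster and DMSO list. The members, comparison lists, and rules were chosen with earlier results of these data known. Within the comparison lists, genes were named after their values were seen. The alternatives were other promoter windows and start sites, summits in place of overlap, stricter peaks, DMSO lists cut to as many peaks as with MS67, and clusters widened by 10 kb on each side. Software was matplotlib 3.10.9, pandas 2.3.3, scipy 1.17.1, numpy 2.4.6 and Python 3.11.15.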

Additional observations from a re-analysis of the deposited data

How the results depend on the processing

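Of 87 alternative values for 19 results, 8 were counted as moved. Each of these went to or from 0 or crossed the covered share of the genome. The other 79 did neither, and some of them changed by smaller amounts. No counting error was computed for the covered shares. All SS18::SSX values were 0 under every alternative run. From a main count of 0, the narrower windows, summit and centre rules, stricter peaks and cut lists could return only 0. Those outcomes were fixed in advance and are among the 79, as are the like ones for WDR5 with MS67. The 2 kb window, any annotated start site and the clusters widened by 10 kb could have raised the SS18::SSX values, and did not. With a promoter of 1000 bp before to 100 bp after the start and the centre of the peak inside, the number of clustered protocadherin promoters with a WDR5 peak with DMSO was 0 rather than 3, and so was the number lost with MS67. By construction, this promoter leaves out the peak centres farther downstream, and 31.2% of all promoters had a WDR5 peak with DMSO under it. With a −log10 q above 3 and a fold above 6, or with the DMSO list reduced to the size of the MS67 list, WDR5 was left at PCDHAC1 and PCDHAC2 and not at PCDHB2. The covered share of PCDHB for WDR5 with DMSO was 0 with that stricter rule. The covered share of PCDHG was 0 with it and 0 with a −log10 q above 5. With 10 kb added on each side, the WDR5 shares with DMSO were 0.459% for PCDHA and 0.792% for PCDHG, which then took in the peak past its end. Against the 0.469% of the genome, PCDHA thus went from above to below and PCDHG from below to above. In the same setting, the share of PCDHG for WDR5 with MS67 was 0.113%, from the peak at TAF7. No paired analysis was possible because each condition had 1 library and no result came from a test.

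The lists hold called peaks alone, so signal below the lowest pileups called, between 3 and 7 fragments at the genome background, could not be seen. The 2 WDR5 libraries differed in coverage, and spike-in scaling was not used here. Promoter peaks were counted per gene, although neighbouring genes share peaks and surroundings.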
